A study of Homo sapiens with 4 samples.

Results

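Of the 35838 γH2AX peaks in the lists of mock-induced and lipid overload-induced HepG2 cells, 7555 lay outside every annotated gene: 1984 of 8542 mock peaks and 5571 of 27296 lipid-overload peaks. They were chosen by position alone. A peak had to lie on chromosomes 1 to 22 or X and more than 1 Mb from a chromosome end, overlap no RefSeq gene of any biotype, and stay out of a window of 1 kb on either side of each end of a protein-coding gene. Once chromosome ends were set aside, 7980 mock and 25505 lipid-overload peaks remained, and the outside-gene peaks were 24.9% (95% interval 23.9 to 25.8) and 21.8% (21.3 to 22.4) of them.

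HepG2 is a human liver cancer cell line, and the series holds 4 samples in 4 groups of 1: cells titled HEPG2-DMSO (mock-induced) and HEPG2-PAOA (lipid overload-induced), probed for γH2AX or with control IgG. The labels give 100000 cells per assay and 14 cycles of PCR. Libraries made with IgG were not analysed here, and the values below have no antibody background beside them. Gene expression was not analysed here either, so the cell type could not be checked against its markers. With 1 library per condition no test between conditions was possible, and every interval below covers counting error only, at 95%.

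γH2AX is the histone variant H2AX phosphorylated on its carboxy-terminal tail by the kinases ATM, ATR and DNA-PK, and it spreads over chromatin around a DNA double-strand break. CUT&Tag maps it with an antibody that brings a transposase to the chromatin, and the transposase prefers open DNA. Sequence between genes holds enhancers, unannotated promoters, repeats and the satellite arrays of centromeres, and much of it is packed in closed chromatin.

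A peak's value here is the number of DNA fragments over its summit, recovered from the deposited fold enrichment and −log10 p. As judged from the genome background and an inferred fragment length of each, the lipid-overload library held 2.62 times as many fragments as the mock library. That depth ratio is the base for the comparisons of fragment numbers. It holds if the background in each list comes from that library itself. Use of the IgG libraries by the peak caller, on which this depends, was not stated in the labels. The median outside-gene peak had 4 fragments in mock and 7 in lipid overload. Peaks in noncoding genes and pseudogenes had the same medians, those inside coding genes 5 and 8, and those at coding gene ends 6 and 11. The deepest reached 150 fragments in mock and 302 in lipid overload. Peaks of 5 fragments or fewer made up 67.5% (65.4 to 69.5) of the mock and 28.8% (27.6 to 30.0) of the lipid-overload outside-gene peaks. Median width was 171 bp and 178 bp, and the peaks covered 380.0 kb and 1167 kb in all. At the limit of the rule, the 693 mock and 1826 lipid-overload peaks that missed a coding gene by up to 1 kb, which were left out, had medians of 7 and 11 fragments. The 81 and 265 peaks lying 1 to 2 kb from a coding gene, which were kept where they touched no other gene, had medians of 5 and 10.

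Some outside-gene peaks lay across the promoter of a long noncoding RNA (lncRNA) without reaching the gene. Promoter windows, from 250 bases before to 50 after a gene's start, were read from RefSeq GRCh38.p14. Peaks of this kind numbered 24 in mock and 58 in lipid overload, and each such window belonged to an lncRNA. Windows were ranked by lipid-overload fragments after those of a chromosome named in the processing section were left out. The windows below had the most among the rest, 4 under peaks found in both lists and 4 under peaks found in lipid overload only. They are shown because they are the part of the outside-gene set whose sequence could be read, and they were picked after their values were seen. Each runs 5′ to 3′ on the gene's strand, with the bases under the lipid-overload peak in capitals.
MIRLET7A1HG: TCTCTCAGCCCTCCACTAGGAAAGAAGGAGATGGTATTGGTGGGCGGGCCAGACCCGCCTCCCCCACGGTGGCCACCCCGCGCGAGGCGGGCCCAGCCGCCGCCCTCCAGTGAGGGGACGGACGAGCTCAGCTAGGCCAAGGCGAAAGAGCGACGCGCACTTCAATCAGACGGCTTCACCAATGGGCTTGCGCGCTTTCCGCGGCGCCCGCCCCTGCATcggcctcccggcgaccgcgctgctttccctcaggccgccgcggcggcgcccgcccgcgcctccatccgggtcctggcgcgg
LINC02846: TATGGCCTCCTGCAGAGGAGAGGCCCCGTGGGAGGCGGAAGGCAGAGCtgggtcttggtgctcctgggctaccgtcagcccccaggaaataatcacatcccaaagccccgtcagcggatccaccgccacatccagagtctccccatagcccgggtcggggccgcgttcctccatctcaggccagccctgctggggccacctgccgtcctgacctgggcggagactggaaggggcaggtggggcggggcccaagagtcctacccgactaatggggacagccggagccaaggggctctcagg
LOC105374383: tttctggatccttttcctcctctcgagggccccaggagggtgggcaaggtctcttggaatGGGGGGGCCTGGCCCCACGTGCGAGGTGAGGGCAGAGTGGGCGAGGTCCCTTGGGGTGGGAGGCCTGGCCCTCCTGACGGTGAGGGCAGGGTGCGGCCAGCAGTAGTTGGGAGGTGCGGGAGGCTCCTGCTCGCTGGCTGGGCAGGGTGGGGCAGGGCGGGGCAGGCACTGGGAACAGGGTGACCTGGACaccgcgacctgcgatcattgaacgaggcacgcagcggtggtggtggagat
LOC105369397: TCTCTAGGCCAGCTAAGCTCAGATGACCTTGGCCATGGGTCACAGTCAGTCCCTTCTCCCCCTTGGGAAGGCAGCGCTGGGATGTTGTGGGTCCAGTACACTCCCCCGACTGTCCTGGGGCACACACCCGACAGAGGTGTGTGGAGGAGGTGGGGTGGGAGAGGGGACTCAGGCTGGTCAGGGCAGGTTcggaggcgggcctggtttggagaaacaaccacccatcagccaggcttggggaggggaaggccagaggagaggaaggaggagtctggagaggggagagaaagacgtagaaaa
LOC105376325: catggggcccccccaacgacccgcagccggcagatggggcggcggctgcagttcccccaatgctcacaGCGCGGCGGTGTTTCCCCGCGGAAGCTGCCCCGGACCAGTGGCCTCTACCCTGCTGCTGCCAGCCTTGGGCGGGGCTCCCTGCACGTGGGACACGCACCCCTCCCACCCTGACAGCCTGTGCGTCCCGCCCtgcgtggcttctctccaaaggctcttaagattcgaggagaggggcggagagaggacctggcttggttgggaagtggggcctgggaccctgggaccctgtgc
LINC01531: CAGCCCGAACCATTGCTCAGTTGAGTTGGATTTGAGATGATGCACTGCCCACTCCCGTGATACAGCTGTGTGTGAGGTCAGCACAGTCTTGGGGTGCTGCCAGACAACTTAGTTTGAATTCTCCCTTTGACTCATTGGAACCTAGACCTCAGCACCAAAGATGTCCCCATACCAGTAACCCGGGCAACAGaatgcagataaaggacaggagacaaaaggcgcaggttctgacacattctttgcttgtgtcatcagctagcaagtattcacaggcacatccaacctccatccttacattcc
LOC105378577: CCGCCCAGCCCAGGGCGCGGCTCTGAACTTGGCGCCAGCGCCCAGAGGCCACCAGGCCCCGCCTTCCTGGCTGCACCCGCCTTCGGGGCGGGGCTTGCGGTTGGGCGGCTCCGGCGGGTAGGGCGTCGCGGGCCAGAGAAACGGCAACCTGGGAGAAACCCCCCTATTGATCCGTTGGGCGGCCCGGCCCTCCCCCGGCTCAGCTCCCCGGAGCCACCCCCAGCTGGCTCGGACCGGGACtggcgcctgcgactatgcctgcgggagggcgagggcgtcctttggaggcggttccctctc
LINC02692: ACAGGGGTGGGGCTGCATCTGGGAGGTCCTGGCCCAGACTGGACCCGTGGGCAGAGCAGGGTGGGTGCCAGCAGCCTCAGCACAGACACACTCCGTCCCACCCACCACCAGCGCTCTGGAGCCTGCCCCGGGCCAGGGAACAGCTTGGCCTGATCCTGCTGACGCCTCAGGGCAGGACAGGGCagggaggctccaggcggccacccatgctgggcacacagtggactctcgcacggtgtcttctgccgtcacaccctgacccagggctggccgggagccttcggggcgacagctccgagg

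In the 4 windows shared by both lists, the lipid-overload peak at MIRLET7A1HG, the host transcript of let-7 microRNAs, stood at 24 fragments and its mock partner at 6 (chr9:94166008-94166307, plus strand). LINC02846 had 17 and 7 fragments (chr9:136109387-136109686, minus strand). LOC105374383 had 16 and 8 (chr2:28377105-28377404, plus strand). LOC105369397 had 15 and 8 (chr11:76752411-76752710, plus strand). Of these 4 pairs, only that of MIRLET7A1HG had a quotient above the depth ratio. In the lipid-only windows the peak stood at 25 fragments at LOC105376325 (chr9:136644427-136644726, minus strand) and 24 at LINC01531 (chr19:35405357-35405656, plus strand). LOC105378577 had 21 (chr10:46284600-46284899, plus strand) and LINC02692 had 20 (chr9:136969162-136969461, plus strand). The counting interval of the highest, 16.2 to 36.9 fragments, holds the values of all 8 windows except the 16 and 15 at LOC105374383 and LOC105369397.

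These windows were richer in G+C than other lncRNA windows, and less so beside promoters of all genes. The median G+C content was 64.2% under mock and 64.3% under lipid-overload outside-gene peaks, against 46% over the 4628 lncRNA windows whose upstream 250 bases hold no gene and 58.7% over all 35116 promoter windows of the table. Median CpG number was 15.5 and 16, against 3 and 14. The GC box, read as GGGCGG on either strand, was present in 13 of 24 mock windows (54.2%) and 33 of 59 lipid-overload windows (55.9%), against 14.1% of the 4628 and 45.0% of all 35116. The E-box CACGTG was present in 16.7% and 16.9%, against 4.602%. The AP-1 site TGACTCA was found in 3 of 24 and 6 of 59 windows, 12.5% and 10.2%, against 8.04%. TATAAA was in 0 of 24 and 1 of 59, against 19.4%. A match is a run of letters on either strand and no measure of binding, and transposase preference for sequence was not tested.

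Around lncRNA genes the peaks lay more often before the 5′ end than after the 3′ end. Among outside-gene peaks within 1 kb of an lncRNA of known strand, 108 of 168 in lipid overload lay on the 5′ side (64.3%, 56.5 to 71.5), and 34 of 52 in mock (65.4%, 50.9 to 78.0). Counted on the gene-free sequence of each side, this was 22.2 against 9.34 peaks per Mb in lipid overload and 6.99 against 2.80 in mock. Of the 24 mock peaks over an lncRNA promoter window, 18 overlapped a lipid-overload peak (75%, 53.3 to 90.2), against 45.8% of all mock peaks. Of the 58 lipid-overload peaks there, 10 overlapped a mock peak (17.2%, 8.59 to 29.4), near the 14.3% of all lipid-overload peaks.

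Outside-gene peaks were rarer farther from genes in both libraries. The median distance to the nearest gene was 10.5 kb in mock and 9.22 kb in lipid overload, and 48.6% and 52.7% of the peaks lay within 10 kb. Gene-free sequence came to 1254 Mb, which gives 1.58 (1.51 to 1.65) mock and 4.44 (4.33 to 4.56) lipid-overload peaks per Mb. In gaps between genes of up to 3 Mb, the first kilobase held 3.06 (2.51 to 3.69) mock and 10.0 (8.99 to 11.1) lipid-overload peaks per Mb. From 1 to 10 kb there were 2.48 and 7.48 per Mb, and from 10 to 100 kb there were 1.40 and 3.75. Beyond 100 kb, up to 500 kb, the values were 0.592 (0.463 to 0.746) and 1.11 (0.931 to 1.31), and beyond 500 kb 0.169 and 0.254, from 2 and 3 peaks. The intervals of neighbouring classes do not overlap in lipid overload up to 500 kb, nor in mock from 1 kb to 500 kb.

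**Figure D1:**
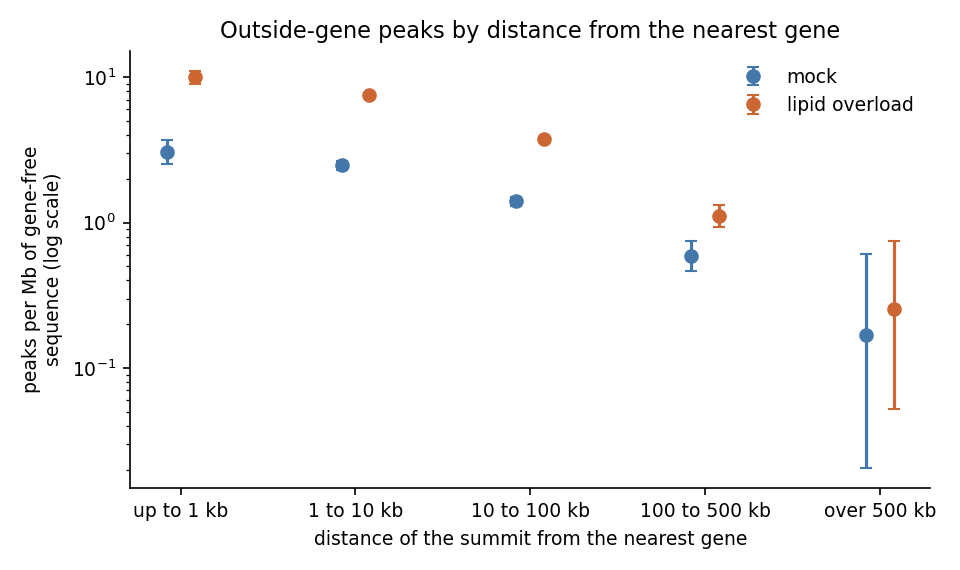
Peaks per Mb of gene-free sequence (log axis) against the distance of the summit from the nearest gene, for gaps between genes of up to 3 Mb. Points are the 1 library per condition and bars exact Poisson 95% intervals. In lipid overload the value falls from 10.0 in the first kilobase to 1.11 at 100 to 500 kb.

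Density also differed with the kind of gene nearest by. Within 10 kb of a gene, lipid-overload peaks stood at 9.75 per Mb (9.19 to 10.3) where the nearest gene was protein-coding, 7.87 (7.41 to 8.36) where it was an lncRNA and 5.28 (4.85 to 5.73) where it was a pseudogene. In mock the values were 2.91, 2.60 and 1.84 per Mb. Next to snRNA genes, which encode spliceosomal RNAs, 13 lipid-overload peaks gave 17.04 per Mb (9.07 to 29.1), and next to tRNA genes 20 peaks gave 11.6 (7.09 to 17.9). Next to snoRNA genes, whose RNAs guide RNA modification, 14 peaks gave 3.58 (1.96 to 6.01). The intervals of snRNA, tRNA and miRNA neighbours overlap that of coding neighbours.

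Deep peaks lay beside a few small RNA genes, while tRNA neighbours had at most 24 fragments in lipid overload and 8 in mock. The peak at chr17:43246452-43246792, 0.587 kb from the snRNA gene LOC124904137, had 97 fragments (78.7 to 118) in lipid overload and 25 in mock, which is above the depth ratio. In the 5S ribosomal RNA array of chromosome 1, the peak between RNA5S6 and RNA5S7 (chr1:228622304-228622577) had 65 and 39 fragments, which is below it. The peak 0.654 kb from RNA45SN2, a copy of the 45S ribosomal RNA precursor gene, had 167 and 78 (chr21:8219957-8220354). The pair beside the microRNA copies MIR4477A and MIR4477B on chromosome 9 had 39 and 34 lipid-overload fragments against 30 and 21 in mock. These genes stand in near-identical copies, and how reads matching several copies were placed is not given in the sources used here. On chromosome 12 a peak 0.503 kb from TRF-GAA1-4, a tRNA gene, had 24 and 6 fragments, and one 0.550 kb from TRA-TGC4-1 had 18 and 8.

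Upstream and downstream flanks of coding genes held similar numbers. Where the strand was known, 1705 lipid-overload peaks lay upstream of the nearest coding gene and 1620 downstream at 1 to 100 kb, and the upstream density was 0.930 times the downstream one. The mock numbers were 568 and 536, with a density ratio of 0.936. Close to the gene the downstream side was the denser one. At 2 to 5 kb there were 7.93 peaks per Mb upstream (6.80 to 9.20) and 10.6 downstream (9.31 to 12.1) in lipid overload, and 1.63 (1.14 to 2.26) and 3.25 (2.55 to 4.10) in mock. At 1 to 2 kb the values were 10.9 and 13.7 in lipid overload and 2.54 and 4.65 in mock, with overlapping intervals. From 5 kb outward the intervals of both sides overlap at each distance.

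**Figure D2:**
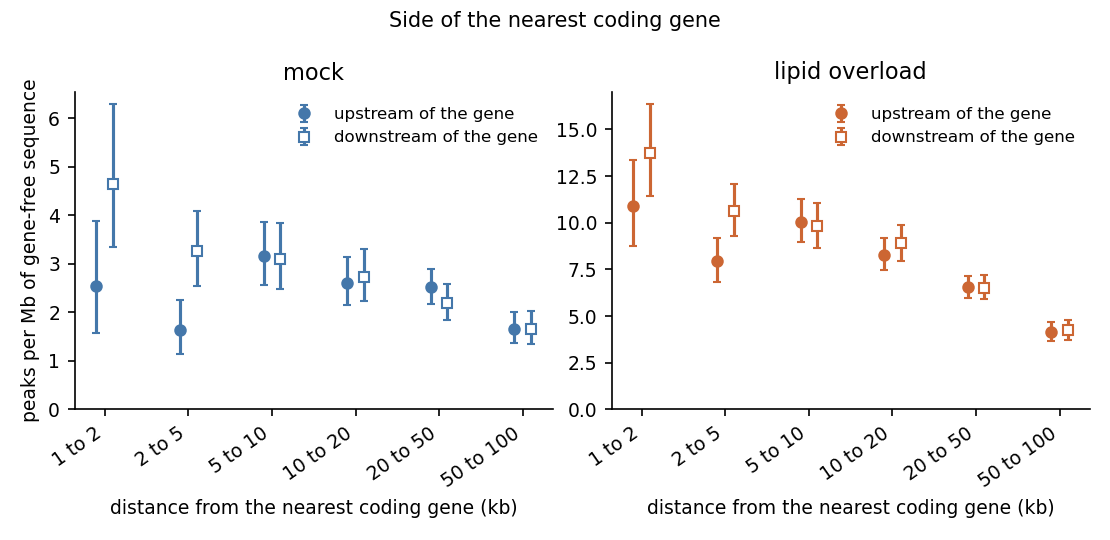
Peaks per Mb of gene-free sequence by distance from the nearest coding gene of known strand, upstream (filled circles) and downstream (open squares), in mock (left) and lipid overload (right, on its own scale). Bars are exact Poisson 95% intervals of 1 library each. At 2 to 5 kb the downstream values, 3.25 and 10.6, lie above the upstream ones, 1.63 and 7.93.

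Gaps of more than 3 Mb without a gene, which mostly span centromeres, numbered 13 and held 89.7 Mb. They contained 39 mock and 66 lipid-overload peaks, spread unevenly. The gap of 21.7 Mb between EMBP1 and LOC101929814 on chromosome 1 had 13 mock and 19 lipid-overload peaks. The gaps of chromosome 10 (CHEK2P5 to KSR1P1) and 17 (WEE1P2 to LOC100422478) had 7 and 12, and 7 and 15. In the gaps of chromosomes 7, 9, 11, 18 and 19 neither list had a peak, and how much of each gap is sequence on which reads can be placed was not tested.

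The 5 peaks of each list farthest from genes held both deep and shallow ones. The farthest, chr1:125182539-125182749, lay 3611 kb from EMBP1, with 43 fragments in lipid overload and 17 in mock. Next to it, chr1:125180061-125180389 had 147 fragments (124 to 173) and 80 (63.4 to 99.6). The other farthest peaks included some of 3 and 5 fragments in mock and of 4 and 6 in lipid overload. At 100 to 500 kb from genes, in gaps of up to 3 Mb, the medians were 4 fragments in mock and 5 in lipid overload, against 5 and 8 within 1 kb. The deepest outside-gene peaks lay at various distances. On chromosome 5, 736 kb from EMB, chr5:49659786-49659938 had 143 and 89, and chr5:49601498-49601677 had 119 and 80. In chr3:93470362-93470781, 373 kb from RNU6-488P, the values were 219 (191 to 250) and 150. The deepest of all, chr4:49149336-49149824, lay 11.4 kb from LOC101927209 and had 302 (269 to 338) and 149. At each of these sites given by position lipid overload over mock was below the depth ratio. Those sites stood on a local background of 12.1 to 34.2 times the genome level, and its part in the values was not tested. On chromosome 21, chr21:7926098-7926565, 69.1 kb from LOC105379505, had 114 and 51 fragments.

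Lipid overload had 2.81 times as many outside-gene peaks as mock (2.67 to 2.96), a smaller increase than at coding gene ends (3.73, 3.55 to 3.91) or inside coding genes (3.22, 3.09 to 3.36). It was near that of peaks in noncoding genes and pseudogenes (2.65, 2.45 to 2.88). Since the libraries differ in depth, the numbers were also taken at thresholds that scale with it: at least 5 fragments in mock and at least 14 in lipid overload. Then 919 mock and 812 lipid-overload outside-gene peaks remained, a ratio of 0.884 (0.803 to 0.972). The ratio was 1.85 (1.74 to 1.96) at coding gene ends, 1.03 (0.965 to 1.11) inside coding genes and 0.811 (0.700 to 0.940) in noncoding genes. So the direction for outside-gene peaks turns with the base chosen, while gene ends stayed above 1 on both. The threshold of 14 is 5 times the depth ratio rounded up. Rounding up can only lower the ratios at the scaled thresholds, and rounding down was not tried. With the lists cut to equal length the ratio for outside-gene peaks was 0.589.

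**Figure D3:**
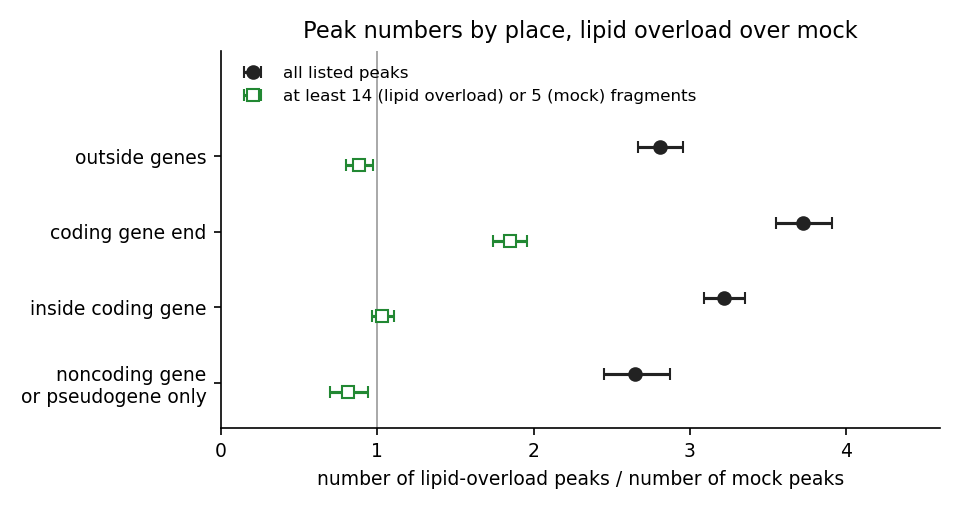
Number of lipid-overload peaks divided by the number of mock peaks, by place, for all listed peaks (filled circles) and at thresholds of 14 and 5 fragments, which scale with depth (open squares). Bars are 95% intervals from the exact binomial. Outside genes the ratio is 2.81 for all peaks and 0.884 at the scaled thresholds, and the line marks equal numbers.

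The ratio was lower farther from genes. Within 1 kb of a gene it was 3.33 (2.70 to 4.14), at 1 to 10 kb 3.01 (2.78 to 3.25), at 10 to 100 kb 2.67 (2.47 to 2.88) and beyond 100 kb 1.82 (1.42 to 2.33). At the scaled thresholds the values were 1.14 (0.805 to 1.61), 1.01 (0.881 to 1.15), 0.700 (0.595 to 0.824) and 0.795 (0.495 to 1.27). Only the class at 10 to 100 kb had an interval below 1, with the threshold rounded up in the same way. The share of peaks over 100 kb from any gene was 5.19% (4.26 to 6.26) in mock, 103 peaks, and 3.36% (2.90 to 3.86) in lipid overload, 187 peaks.

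Overlap between the lists was lower than over all peaks, and near that of the other peaks away from gene ends. Of the mock outside-gene peaks 607 (30.6%, 28.6 to 32.7) overlapped a lipid-overload peak by at least 1 bp, against 45.8% of all mock peaks and 44.2% of those away from chromosome ends. It was 30.5% inside coding genes, 31.2% in noncoding genes and pseudogenes, and 80.6% (78.9 to 82.3) at coding gene ends. In lipid overload 589 (10.6%, 9.78 to 11.4) overlapped a mock peak, against 14.3% of all peaks of that list and 13.8% away from chromosome ends. Inside coding genes it was 9.33% and in noncoding genes 12.3%. The mock partner itself lay outside genes for 585 of the 589, and the median distance between the summits was 48 bp. Peaks found in 1 list only numbered 1377 in mock and 4982 in lipid overload. Over all peaks of the lists, 54.2% of mock and 85.7% of lipid-overload peaks had no overlapping partner.

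Depth of a peak went with its overlap. Mock outside-gene peaks of 5 fragments or fewer overlapped a lipid-overload peak in 12.8% of cases (11.1 to 14.8), against 24.9% (23.5 to 26.5) of mock peaks elsewhere in that range. Elsewhere means all other peaks away from chromosome ends. It includes coding gene ends, where 80.6% of mock peaks of any depth overlapped, and it was not split by place. At 6 to 9 fragments the shares were 54.0% (49.2 to 58.8) and 68.7% (66.6 to 70.8). At 10 to 19 fragments they were 93.5% (88.5 to 96.9) and 94.1% (92.2 to 95.7), and all 55 mock outside-gene peaks of 20 or more had a partner. In lipid overload, 54.2% of outside-gene peaks of 20 to 49 fragments had a mock partner (48.4 to 59.98), against 48.4% elsewhere (46.3 to 50.6). Of the 1377 mock-only peaks, 84.7% had 5 fragments or fewer and none had more than 15.

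At sites found in both lists, the excess of lipid-overload fragments was mostly smaller than that of the library's depth. Such sites need a called mock peak, which favours high mock numbers and leaves out peaks found in lipid overload only. This choice can lower the ratios in every class. A called lipid-overload peak is needed as well, which favours high lipid-overload numbers, and the net effect on the ratios was not tested. The median ratio of lipid-overload to mock fragments was 1.88 over the 589 shared outside-gene peaks, and 120 (20.4%, 17.2 to 23.9) lay above the depth ratio of 2.62, against 36.9% of all shared peaks away from chromosome ends. With at least 10 mock fragments, 38 of 193 did (19.7%, 14.3 to 26.0), against 36.9% of all shared peaks at that depth. The same count was 212 of 436 (48.6%, 43.8 to 53.4) at coding gene ends, 34.7% inside coding genes and 19.4% in noncoding genes. Beyond 100 kb from any gene 2 of 20 lay above it, and the median ratio was 1.58.

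**Figure D4:**
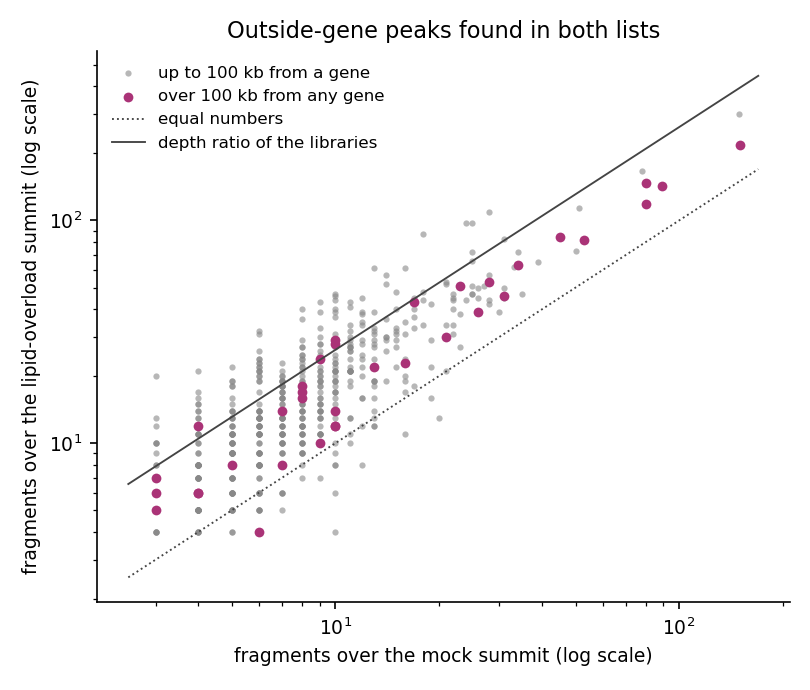
Fragments over the summit in mock (x, log axis) and lipid overload (y, log axis) at the 589 lipid-overload outside-gene peaks that overlap a mock peak. Each point is a site, the solid line the depth ratio of 2.62 and the dotted line equal numbers, and 120 sites lie above the solid line. Of the 20 sites over 100 kb from any gene with at least 10 mock fragments, 2 lie above it.

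Some shared sites near coding genes did exceed the depth ratio. Between LRRC3C and GSDMA, the latter a pore-forming gasdermin, the peak at chr17:39952756-39953312 had 87 fragments (69.7 to 107) in lipid overload and 18 in mock. Between TMEM151A and CD248, which encodes endosialin, the values were 61 and 13 (chr11:66312632-66313059). Between FLYWCH2 and FLYWCH1 they were 109 (89.5 to 131) and 28 (chr16:2905368-2906055). At 21.4 kb from the keratin gene KRT80 they were 61 and 16 (chr12:52147012-52147618). AVPI1 and MARVELD1 flank a peak of 83 and 31 (chr10:97689597-97689994), close to the depth ratio. AGPAT2, which makes phosphatidic acid in glycerolipid synthesis, lay 6.88 kb from a peak of 53 and 21 (chr9:136694339-136694650). That peak was slightly below the depth ratio and did not exceed it. Apart from that between FLYWCH2 and FLYWCH1, these peaks were picked with their values in view. They too stood on a high local background, 13.9 to 28.6 times the genome level, as did the deep sites below the depth ratio. Other shared sites near coding genes exceeded the depth ratio on a lower background. At chr12:8242980-8243691 there were 57 and 14 fragments at 6.21 times the genome level. At chr17:17028149-17028644 there were 52 and 14 at 7.05 times, and the peak beside LOC124904137 stood at 4.70 times.

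Among peaks found in lipid overload only, the highest lay near deep sites found in both lists. The first had 106 fragments (chr5:49658626-49658776) and lay 737 kb from EMB, on a background of 34.2 times the genome level. That at chr4:49092746-49092905, between CWH43 and LOC101927209, had 87, and a pair between the same genes had 37 each (chr4:49109682-49109805 and chr4:49137152-49137312). Away from such regions, chr12:131224190-131224641, 0.557 kb from LOC105370082, had 42 fragments (30.3 to 56.8). Between GPR132, a receptor for lysophospholipids and other lipids, and LINC02298 there were 40 (chr14:105091598-105091937). At 4.70 kb from CCDC187 there were 37 (chr9:136311604-136312004), and likewise 37 at 5.24 kb from SLC12A7, a potassium-chloride cotransporter (chr5:1161137-1161588). For these sites the mock list gives no value, which is not a value of 0.

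Mock-only peaks were shallower. The deepest had 15 fragments (8.40 to 24.7) between UBAC1 and NACC2 (chr9:135982029-135982168). Between ZFYVE27 and SFRP5, a secreted inhibitor of Wnt signalling, there were 13 (chr10:97765113-97765311). The peak at chr6:168378569-168378727 had 12, as did one between SLC12A7 and TERLR1 (chr5:1161904-1162087). One between FLYWCH2 and FLYWCH1 had 11 (chr16:2904438-2904606). The last 2 lay beside lipid-overload peaks named above, without overlapping them.

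The widest lipid-overload peak spanned 1395 bp at chr22:12175737-12177131, with 72 fragments and 34 in mock. The next in width were 994 bp between PSMD14-DT and PSMD14, a proteasome subunit gene, with 20 and 16 fragments, and 983 bp between LOC105373966 and LOC150935, with 42 and 28. Each of the 5 widest overlapped a mock peak, with a quotient below the depth ratio.

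Clusters, taken as 3 or more peaks of a list with gaps of at most 10 kb, held a larger share of the lipid-overload than of the mock peaks, with an order that depended on the filter. In mock 15 clusters held 56 peaks (2.82%, 2.14 to 3.65), and in lipid overload 152 clusters held 536 (9.62%, 8.86 to 10.4). The lists differ in density, and the median gap between neighbouring outside-gene peaks was 568 kb in mock and 108 kb in lipid overload. At the scaled thresholds the shares were 5.01% and 12.2%, at a fold of at least 5 they were 4.75% and 5.41%, and at a −log10 q of at least 5 the order turned, with 7.47% and 6.53%. All 15 mock clusters held a lipid-overload outside-gene peak, while 80 of the 152 lipid-overload clusters held no mock one. Peak by peak, 22.6% of clustered lipid-overload peaks overlapped a mock peak. This compares with 9.29% outside clusters and 14.3% of all lipid-overload peaks. In mock the shares were 85.7% and 29.0%, against 45.8% of all mock peaks. Clustered peaks were deeper, with a median of 11.5 fragments against 4 outside clusters in mock and 11 against 7 in lipid overload. Local background of at least 10 times the genome level was found at 39.3% of clustered mock peaks against 2.28% of the others. In lipid overload it was found at 12.9% against 1.57%. If that background comes from the library itself, fragments of neighbouring peaks enter it. A higher background is then partly built into the definition of a cluster, and these shares are no separate trait.

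The fullest clusters lay next to the centromere of chromosome 4. Between CWH43 and LOC101927209, 8 lipid-overload peaks of 6 to 302 fragments spanned 24.5 kb, and 7 more of 13 to 87 fragments spanned 26.3 kb. A further 7 peaks of 7 to 44 fragments lay between LOC124900865 and ANKRD20A17P, where mock had its own fullest cluster of 6 peaks, of 8 to 28 fragments. On chromosome 1, at 34.7 kb from LOC101929814, 7 lipid-overload peaks stood beside 5 mock ones. Beside PDCD6P1 on chromosome 5, 7 peaks of 10 to 15 fragments spanned 30.7 kb (chr5:1637796-1668524), with 3 mock peaks of up to 11. The next mock clusters in number were 5 peaks near LOC107984037 on chromosome 22 and the 5 on chromosome 1.

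Among the 80 clusters with no mock outside-gene peak, the fullest, 6 peaks of 4 to 16 fragments over 27.5 kb, lay 78.4 kb from SMNDC1, a splicing factor gene (chr10:110383273-110410747). Between NALT1 and LOC124902311 on chromosome 9, 5 peaks had 12 to 27 fragments (chr9:136554038-136569092). Next to PHLDA2, an imprinted gene of placental growth, 4 peaks had 16 to 36 (chr11:2930850-2941550). Next to ELF3, an epithelial transcription factor gene, 4 had 11 to 20 (chr1:202018318-202023298).

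Chromosomes differed widely in density. In lipid overload chromosome 19 had 13.5 peaks per gene-free Mb (11.9 to 15.2), chromosome 22 had 10.7 (9.07 to 12.5) and chromosome 17 had 8.45 (7.42 to 9.57). Chromosome X had 0.757 (0.588 to 0.960), chromosome 4 had 1.07 (0.866 to 1.31) and chromosome 13 had 1.56 (1.22 to 1.96). In mock the order was similar, with 3.25 on chromosome 19, 3.42 on chromosome 22, 0.379 on X and 0.698 on chromosome 4. The lipid-overload to mock ratio of numbers ran from 1.38 (0.954 to 2.00) on chromosome 13 and 1.53 (1.10 to 2.15) on chromosome 4 to 4.15 (3.13 to 5.56) on chromosome 19. Copy number of the chromosomes, which the line does not hold evenly, was not measured here.

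**Figure D5:**
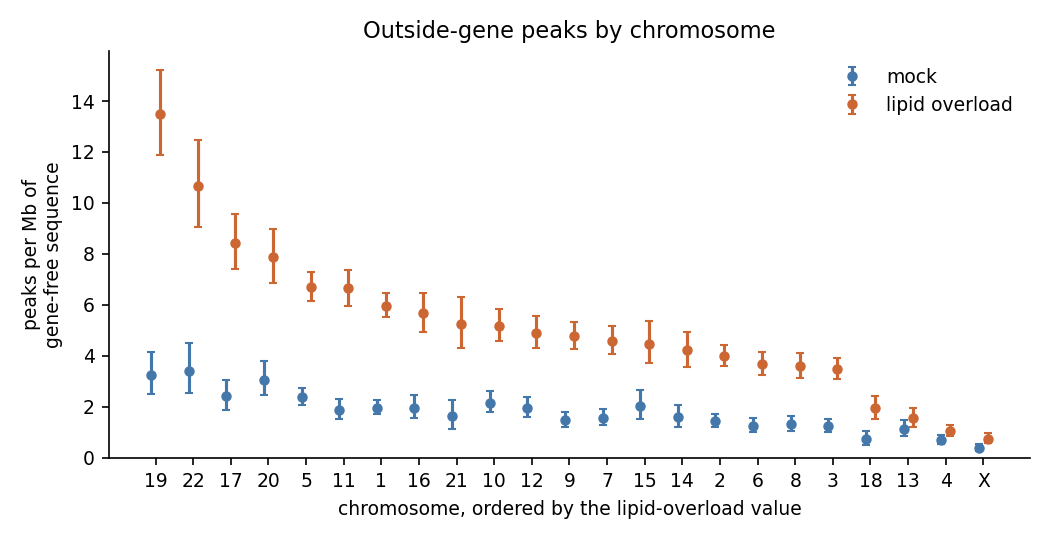
Outside-gene peaks per Mb of gene-free sequence on each chromosome, ordered by the lipid-overload value. Points are the 1 library per condition and bars exact Poisson 95% intervals. Chromosome 19 has 13.5 in lipid overload and 3.25 in mock, and chromosome X 0.757 and 0.379.

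Within chromosomes a few windows stood out. The window of chromosome 5 from 2 to 3 Mb had the most lipid-overload peaks, 41, against 3 mock ones. The next, on chromosome 4 from 49 to 50 Mb, had 34 and 20. Taken from 1 to 7 Mb, the end of the short arm of chromosome 5 had 135 lipid-overload and 43 mock peaks. Their ratio was 3.14 (2.21 to 4.53), an interval that holds the 2.81 of all outside-gene peaks. The last 10 Mb of chromosome 9, without its outermost 1 Mb, had 149 and 32, a ratio of 4.66 (3.16 to 7.05), with medians of 12 and 7 fragments. The coding genes with the most outside-gene peaks nearest to them included IRX2 (33 in lipid overload, 6 in mock) and IRX1 (29 and 9), homeobox genes on the short arm of chromosome 5. These numbers were not set against the gene-free sequence beside each gene. The windows and genes of this kind were picked with their values in view.

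Gene lists chosen for the tissue and treatment were compared with all coding genes by whether the gene was the nearest coding gene of an outside-gene peak. The lists were chosen with earlier results of these data known, so their shares are a description and no test. Over all 19821 coding genes, 7.69% were the nearest to such a peak in mock and 16.4% in lipid overload. Such a share also depends on how much gene-free sequence lies next to a gene, a median of 12.1 kb over all coding genes. The number per Mb of that sequence is therefore given beside it.

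The AP-1 and immediate early genes, transcription factors and regulators induced within minutes of growth or stress signals, had the highest share. Of 20 genes, 7 had a mock peak nearest to them (35%, 15.4 to 59.2) and 14 a lipid-overload peak (70%, 45.7 to 88.1). Per Mb of gene-free sequence nearest to them there were 6.41 mock (2.93 to 12.2) and 24.9 lipid-overload peaks (17.4 to 34.7), against 1.58 and 4.44 over all coding genes. These intervals treat peaks as independent, though several lay next to each other, as in the FOSL2 cluster below, so they may be too narrow. The ratio of the conditions, 35 to 9 peaks, compares with 5571 to 1984 over all. FOS, the founding AP-1 subunit, had 6 lipid-overload peaks, of 34 fragments 19.3 kb upstream (chr14:75258890-75259486), 19 and 13 at 1.67 and 1.30 kb upstream, and 10, 6 and 4 farther away. None of the 6 overlapped a mock peak, and neither did 85.7% of all lipid-overload peaks. Mock had 2 peaks near FOS, of 4 and 15 fragments, and the latter overlapped a lipid-overload peak that is not among the 6. FOSL2, another AP-1 subunit, also had 6, and mock had none nearest to it that lay outside genes. Of these, 5 of 8 to 11 fragments formed a cluster 19.4 to 36.8 kb downstream (chr2:28436714-28454305), and the other, of 16 fragments, covered the LOC105374383 window printed above.

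Other members of the list had fewer. EGR1, a zinc finger factor, had 23 fragments 1.19 kb upstream, 11 at 6.49 kb upstream and 12 at 1.43 kb downstream, in lipid overload only. DUSP1, a phosphatase of MAP kinases, had 3 lipid-overload peaks downstream, and those at 34.1 and 2.38 kb, of 20 and 14 fragments, overlapped mock peaks of 6 and 7. The JUND peak 11.8 kb upstream had 25 fragments and its mock partner 8. That of JUN, 138 kb upstream, had 17 and 4. Single lipid-only peaks of 31 and 24 fragments lay 2.83 kb from ZFP36, which binds messenger RNAs of short life, and 2.54 kb from FOSL1. FOSB, JUNB, EGR3, KLF6 and NR4A1 had none in either list. ZFP36, FOSL1, JUN and JUND were named after their values were seen.

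The other lists had fewer peaks. Of 25 genes of lipid synthesis, storage and oxidation, 2 had a mock peak and 8 had one in lipid overload (32%, 14.9 to 53.5), and 13 peaks gave 8.54 per Mb (4.55 to 14.6). INSIG1, which holds back sterol synthesis, had 4 lipid-overload peaks upstream and 3 mock ones, and at 67.3 kb its values were 21 and 10 fragments. INSIG2 had peaks of 12 and 4 fragments in lipid overload only. PLIN3, a lipid droplet coat protein, had 35 fragments (24.4 to 48.7) 2.43 kb upstream (chr19:4870102-4870386), with no overlapping mock peak. ANGPTL4, an inhibitor of lipoprotein lipase that was named after its value was seen, had 26 at 1.76 kb upstream, likewise without a mock partner.

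Of 22 hepatocyte identity genes, 3 had a mock peak and 5 had one in lipid overload (22.7%, 7.82 to 45.4), at 9.19 per Mb (4.41 to 16.9). CEBPB had 4 lipid-overload peaks of up to 24 fragments, CEBPA 2, of 11 and 10 fragments, with a mock partner of 8 at the first, and FOXA3 1, of 11. These are transcription factors of liver. Of 20 double-strand break repair and signalling genes, 1 had a mock and 4 a lipid-overload peak, among them 1 each nearest to PRKDC, RBBP8 and XRCC6, with 10, 8 and 6 fragments. Of 20 marker genes of other cell types, 1 had a mock and 4 a lipid-overload peak (20%, 5.73 to 43.7), at 4.09 per Mb, with 2 peaks nearest to the endothelial gene PECAM1. The intervals of the AP-1 and immediate early shares lay above the shares over all coding genes in both libraries, and those of the other lists held them. The AP-1 and immediate early genes also had more gene-free sequence beside them, a median of 31.2 kb. Per Mb in lipid overload, the interval of the lipid list, 4.55 to 14.6, lay above the 4.44 of all coding genes too. The repair and signalling list had 9.29 per Mb (2.53 to 23.8), an interval that holds 4.44.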

How the data were processed

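γH2AX CUT&Tag peak lists of 1 mock and 1 lipid-overload library were used, grouped by sample title. The submitters' processing notes name hg38 as the build and list BWA, MACS2 2.1.2, deepTools and FastQC. Settings were not given in the sources used here, nor was any use of IgG when peaks were called. In the deposited lists, called per sample, each peak has a score, a fold enrichment (a linear ratio), a −log10 p and a −log10 q. These are the authors' values and served to filter and rank peaks within a list and to recover fragments.

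Fold and −log10 p were solved for whole fragments over the summit and a local background, under the Poisson formulas of MACS2, which fitted 100% of peaks within 0.0001 in log10 p. Genome background, 0.121 fragments in mock and 0.289 in lipid overload, divided by fragment lengths of 137 and 124 bp gave the depth ratio. These lengths were not given and were inferred from the step between local background values. That takes the background to be counted in a 10 kb window of the library itself. Without the division the ratio would be lower. Library totals were not given in the lists. Intervals are exact Poisson for numbers and exact binomial (Clopper-Pearson) for shares and ratios. They treat PCR copies as if they were independent molecules, and neighbouring peaks as if they were independent of each other.

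Genes were taken from the RefSeq table of GRCh38.p14, which shares its coordinates with hg38. Of 59098 on chromosomes 1 to 22 and X, 679 whose positions were out of order in the table by more than 1 Mb were set aside. Strand was known for 15813 of 19821 coding genes. Gene-free sequence was counted at every 10th base under the same rule as the peaks, without a map of assembly gaps. Densities by distance use the summit, other distances the peak's edge.

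Members and gene lists were chosen with earlier results of these data known. Named peaks, ranked by fragments, were the 8 highest in lipid overload only and in both lists, the 5 highest in mock only, the 5 fullest lipid-overload and 3 fullest mock clusters, the 5 farthest of each list, the 5 widest, and up to 4 genes of each gene list with the most lipid-overload peaks. Some of these are given by count only or are not reported here. Items outside the rule, among them those at small RNA genes, promoter windows, lipid-only clusters and dense windows, were named after their values were seen. Promoter windows on chromosome 8 were left out before the printed ones were ranked, so the printed set is not a ranking over all chromosomes. The steps were tested on simulated data and run in Python 3.11.15 with numpy 2.4.6, pandas 2.3.3 and scipy 1.17.1. Of 13 alternatives 11 were planned and 2 were added after seeing the data.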

Additional observations from a re-analysis of the deposited data

How the results depend on the processing

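No paired analysis was possible because each group has 1 sample, and no replicate could be left out. Of 114 values over 13 alternatives, 56 stayed within the interval of the reported value and 58 did not, and the cause was not tested. In the pairs below mock stands first and lipid overload second. At a −log10 q of at least 5, the share of peaks outside genes was 19.1% and 15.8%, the number ratio 6.48, the overlap with the other list 83.8% and 12.6%, the share over 100 kb from genes 9.13% and 4.10%, the share in clusters 7.47% and 6.53%, and the median 12 and 13 fragments. At a fold of at least 5, the share outside genes was 19.8% and 18.4%, the number ratio 4.12, the overlap 57.4% and 13.6%, the share in clusters 4.75% and 5.41%, and the median 7 and 10. At thresholds of 5 and 14 fragments, the share outside genes was 19.7% and 13.5%, the number ratio 0.884, the overlap 33.5% and 36.3%, the share in clusters 5.01% and 12.2%, the median 6 and 18, and the lipid-overload share over 100 kb from genes 4.31%. With lists of equal length, the lipid-overload share outside genes was 14.8%, the number ratio 0.589, the overlap 19.9% and 32.3%, and the lipid-overload share over 100 kb from genes 4.45%, share in clusters 7.02% and median 15. Merging peaks within 1 kb gave 1.74% and 6.79% in clusters. Leaving out 5 kb around every gene gave 17.5% and 14.7% outside genes, 27.5% overlap in mock, 7.39% and 4.99% over 100 kb from genes and 8.21% of lipid-overload peaks in clusters. Keeping chromosome ends gave 32.8% overlap in mock and 10.8% in clusters in lipid overload. Overlap of 50% of each peak gave 21.0% and 7.38%, and overlap within 1 kb 34.8% and 13.01%. Clusters with gaps of up to 25 kb held 4.84% and 22.6%. Without peaks on a local background of at least 10 times the genome level, the mock overlap was 28.6% and the shares in clusters 1.62% and 8.10%. Without peaks over 100 kb from genes, the shares outside genes were 23.9% and 21.3%. The last 2 alternatives were chosen after seeing the data. Keeping all genes of the table moved 0 of 11 values out of their interval. The share of peaks outside genes was higher in mock than in lipid overload in each alternative that gave both. A mock peak of 3 fragments has a counting interval of 0.619 to 8.77.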
